A study of Mus musculus with 12 samples.

Results

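The 10 genes described here, Nanog, Esrrb, Tfcp2l1, Prdm14, Zfp42, Nr0b1, Klf2, Klf4, Klf5 and Tbx3, encode transcription regulators of naive pluripotency. They were chosen by symbol, all 10 were found among the 54532 genes of the deposited count table, and all 10 passed the filter on low counts. Poly(A) RNA had been sequenced from E14 cells, a mouse embryonic stem cell line, grown on gelatin with LIF and the kinase inhibitors PD0325901 and CHIR99021 in serum-containing medium. Cells received 1 uM doxorubicin, a topoisomerase II poison that breaks DNA, for 6 h before a change to drug-free medium, or DMSO vehicle for the same time. The groups were p53 KO cells under drug and under vehicle, Dux KO cells under drug and under vehicle, and wild-type cells under drug and under vehicle, with 2 libraries in each of these 6 groups. The 2 libraries of each knockout group come from knockout lines 1 and 2, whereas both wild-type libraries of a group carry the name of a single line. How long cells stayed without drug before harvest is not stated in the sources used here.

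Naive pluripotency is the state of the inner cell mass just before implantation, and mouse embryonic stem cells hold it in culture through a network of transcription factors that activate one another. LIF feeds this network through STAT3, which is known to act on Klf4 and Tfcp2l1, and inhibition of GSK3 by CHIR99021 relieves repression of Esrrb, Nanog and Tfcp2l1 by TCF3. p53 is activated by DNA breaks, and Dux is a homeodomain factor that switches on a gene programme of the 2-cell embryo.

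The start regions of members with deep falls under drug and of a member with a small fall are shown here, because sites for OCT4, SOX2, STAT3 and Krueppel-like factors in such regions are the textbook link between the members. Each line gives the 250 bases before a RefSeq transcript start in GRCm38.p6, 5′ to 3′ on the strand of the gene, and capitals mark matches to the motifs searched. The regions are chr6:122707239-122707488 on the plus strand for Nanog, chr8:43307010-43307259 on the minus strand for Zfp42, chr12:86360867-86361116 on the plus strand for Esrrb and chr4:55532476-55532725 on the minus strand for Klf4.
Nanog: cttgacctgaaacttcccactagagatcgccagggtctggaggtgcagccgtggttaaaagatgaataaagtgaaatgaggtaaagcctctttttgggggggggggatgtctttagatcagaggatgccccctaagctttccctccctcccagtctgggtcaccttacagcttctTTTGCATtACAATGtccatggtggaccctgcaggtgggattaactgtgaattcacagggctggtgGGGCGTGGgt
Zfp42: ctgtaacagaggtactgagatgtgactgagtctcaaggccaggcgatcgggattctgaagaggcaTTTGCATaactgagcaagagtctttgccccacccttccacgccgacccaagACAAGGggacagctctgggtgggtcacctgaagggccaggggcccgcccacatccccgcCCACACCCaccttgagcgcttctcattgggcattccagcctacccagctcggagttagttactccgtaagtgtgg
Esrrb: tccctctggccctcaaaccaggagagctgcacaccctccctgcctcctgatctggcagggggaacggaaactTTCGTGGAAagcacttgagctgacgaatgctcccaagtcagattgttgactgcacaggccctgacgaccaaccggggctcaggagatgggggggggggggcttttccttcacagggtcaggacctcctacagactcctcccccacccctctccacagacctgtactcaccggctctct
Klf4: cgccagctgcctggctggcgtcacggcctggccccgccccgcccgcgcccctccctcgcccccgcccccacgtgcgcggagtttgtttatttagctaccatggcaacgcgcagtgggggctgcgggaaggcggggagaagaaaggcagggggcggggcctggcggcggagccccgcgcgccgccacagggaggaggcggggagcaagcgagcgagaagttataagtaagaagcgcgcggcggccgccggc

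The Nanog window holds the octamer core TTTGCAT of OCT4, followed after 1 base by ACAATG, a match to the SOX core ACAANG. In the Zfp42 window TTTGCAT lies 178 bases before the start, and the octamer core was present in 4.12% of 32851 RefSeq start windows of the same length, searched on both strands. The SOX core is short and was present in 36.3% of those windows. Both windows also hold the Krueppel-like factor motif GGGNGTGG, found in 15.9% of windows. The Esrrb window holds TTCGTGGAA, a match to the STAT3 motif TTCNNNGAA that 7.02% of windows carry, and the Klf4 window holds none of the 6 motifs. Windows were found for 7 of the 10 members, Nanog, Zfp42, Esrrb, Klf4, Klf2, Tfcp2l1 and Nr0b1, and neither the ESRRB motif TCAAGGTCA, present in 0.387% of all windows, nor the p53 half-site, in 7.13%, had a match in any of their 9 windows. Among windows not printed, that of Tfcp2l1 held matches to the Krueppel-like motif only and that of Nr0b1 to the SOX core only, although both genes fell deeply. The other Esrrb window and the Klf2 window held none, and the other Nanog window overlaps the one printed. Any relation between motifs and the depth of the fall was not tested. These matches describe letters only. The motif letters were chosen after earlier results and these windows had been seen.

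Checks of the genotypes came first. Trp53, the gene of p53, had 93.9 and 42.2 CPM in p53 KO drug libraries of lines 1 and 2, and 71.2 and 39.1 CPM in p53 KO vehicle libraries, against 133 and 132 CPM in wild-type drug libraries and 190.0 and 157 CPM in wild-type vehicle libraries. All 4 p53 KO libraries lay below the 4 wild-type libraries without being at 0 (edgeR adjusted p = 0.084 under vehicle), and counts over the whole gene cannot show which stretch was deleted. Mdm2, a p53 target that encodes the ligase degrading p53, reached 68.7 and 51.8 CPM in p53 KO drug libraries against 940 and 939 CPM in wild-type drug libraries. Duxf3, the Dux gene of the annotation, was at 0 in the 2 Dux KO drug libraries and in the 2 Dux KO vehicle libraries, against 21.3 and 22.6 CPM in wild-type drug libraries. In wild-type vehicle libraries it had 0.076 and 0 CPM, so its level under vehicle does not tell Dux KO from wild-type cells. In p53 KO drug libraries it had 3.89 and 0.706 CPM. The counts listed for Dux KO vehicle library 2 equal those of Dux KO drug library 1 in each of the 54532 genes. Its levels were therefore recovered from its own FPKM column. Every edgeR or DESeq2 test of the Dux KO response uses 1 Dux KO vehicle library unless recovered counts are named. The limma fits, made on FPKM, use both Dux KO vehicle libraries, so they differ from the edgeR fit in libraries as well as in method. Total counts of the other 11 libraries ran between 23270358 and 56795858. Those of Dux KO libraries ran between 50796507 and 56795858, and those of wild-type and p53 KO libraries between 23270358 and 32807053. Sequencing depth thus differed along with the Dux KO genotype. Ribosomal RNA loci took 0.128% to 1.30% of counts, except for 6.56% in wild-type drug library b. Levels are CPM, counts scaled to the TMM-corrected library size, which measure a share of the library.

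Summed levels of 8 embryonic stem cell markers lay at 1886 and 2060 CPM in p53 KO drug libraries, 1135 and 1428 CPM in Dux KO drug libraries and 591 and 616 CPM in wild-type drug libraries, against 2857 to 3993 CPM in the 6 vehicle libraries. Markers of other cell types also moved. Summed levels of 9 trophectoderm markers were 223 and 243 CPM in wild-type drug libraries, with Krt7 highest, against 79.6 CPM in each wild-type vehicle library, and 6 of the 9 rose in wild-type cells, where 29.0% of all genes rose. Trophectoderm sums were 164 to 222 CPM in Dux KO drug libraries against 64.4 to 89.4 CPM in Dux KO vehicle libraries, and overlapped in p53 KO cells, at 85.5 to 110.0 CPM under drug against 70.3 to 130.5 CPM under vehicle. In the same wild-type comparison 8 of 8 genes of the 2-cell stage rose, and their sum was 1185 and 1435 CPM in wild-type drug libraries, 17.1 and 55.7 CPM in p53 KO drug libraries and at most 0.213 CPM in Dux KO drug libraries, where 7 of the 8 were at 0. Under vehicle that sum was 3.17 and 3.65 CPM in wild-type, 24 and 24.06 CPM in p53 KO and at most 0.038 CPM in Dux KO libraries. Drug and vehicle sums thus overlapped in p53 KO cells. Several of the 8 genes belong to multigene families whose reads the counting could split between copies. Summed levels of 9 fibroblast markers were 28.5 and 31.4 CPM in wild-type drug libraries, against 10.8 and 12.1 CPM in wild-type vehicle libraries. Of those 9, Twist2, Dcn and Lum were at 0 in both vehicle libraries. Fibroblast sums were 24.7 to 28.6 CPM in p53 KO drug libraries against 13.5 to 19.6 CPM in p53 KO vehicle libraries, and 24.2 to 29.6 CPM in Dux KO drug libraries against 11.7 to 13.1 CPM in Dux KO vehicle libraries. Sums of 9 primitive endoderm markers were 96.8 and 108 CPM in wild-type drug libraries against 146 and 149 CPM in wild-type vehicle libraries, with 86.5 and 96.4 against 69.0 and 82.9 CPM for 6 neuroectoderm markers and 11.1 and 11.4 against 5.05 and 5.85 CPM for 6 streak and mesoderm markers. Neuroectoderm sums in Dux KO cells were lower under drug, at 38.1 to 42.1 CPM against 72.2 to 91.6 CPM under vehicle, and streak and mesoderm sums were higher, at 13.4 to 14.8 CPM against 5.04 to 5.96 CPM. Primitive endoderm sums in Dux KO cells were 105 to 112 CPM under drug against 126 to 157 CPM under vehicle. The p53 KO drug and vehicle ranges overlapped for each of these 3 lists, at 109 to 150.5 against 76.2 to 122 CPM for neuroectoderm, 3.85 to 12 against 2.81 to 7.40 CPM for streak and mesoderm and 99.1 to 103 against 68.9 to 112 CPM for primitive endoderm. The part of such cells in the results was not tested. In bulk RNA, fewer cells of a type and less RNA per cell cannot be told apart.

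Among the members, Nanog and Zfp42 were the most abundant per length of exons in vehicle-treated wild-type cells. Nanog, a homeodomain factor that holds cells in the naive state, had 579 and 560.0 CPM per kb in wild-type vehicle libraries. Zfp42, the zinc finger gene also called Rex1 and widely used as a naive marker, had 286 and 303 CPM per kb. Esrrb followed with 77.1 and 68.3 CPM per kb and Tfcp2l1 with 56.6 and 50.2 CPM per kb. The 3 Krueppel-like factors overlapped in the range of 31.7 to 43.1 CPM per kb, and Tbx3, Nr0b1 and Prdm14 lay between 15.3 and 21.7 CPM per kb. Within each of those 2 trios the order of neighbours was not separated from the spread between libraries, except that Prdm14 lay below both others. Whether intronic reads were counted is not known here. Long genes such as Esrrb, on chromosome 12 at 86361117 to 86521628, may also hold such reads. All positions are those of GRCm38 (mm10).

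In wild-type cells 9 of the 10 members fell under doxorubicin, all but Klf5, by edgeR's quasi-likelihood test at an adjusted p under 0.05. For background, 23.4% of all 28643 genes tested fell in that comparison, and the median log2 change was -2.35 over the members and 0.13 over all genes. Nanog, Esrrb, Tfcp2l1, Prdm14, Zfp42 and Nr0b1 had log2 changes between -2.80 and -2.20, and Klf2, Klf4, Tbx3 and Klf5 between -0.85 and -0.14. In the authors' deposited table the log2 fold changes of the same comparison ran between -2.76 for Nr0b1 and -0.10 for Klf5, and Klf5 alone missed the threshold there (adjusted p = 0.49).

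**Figure D1:**
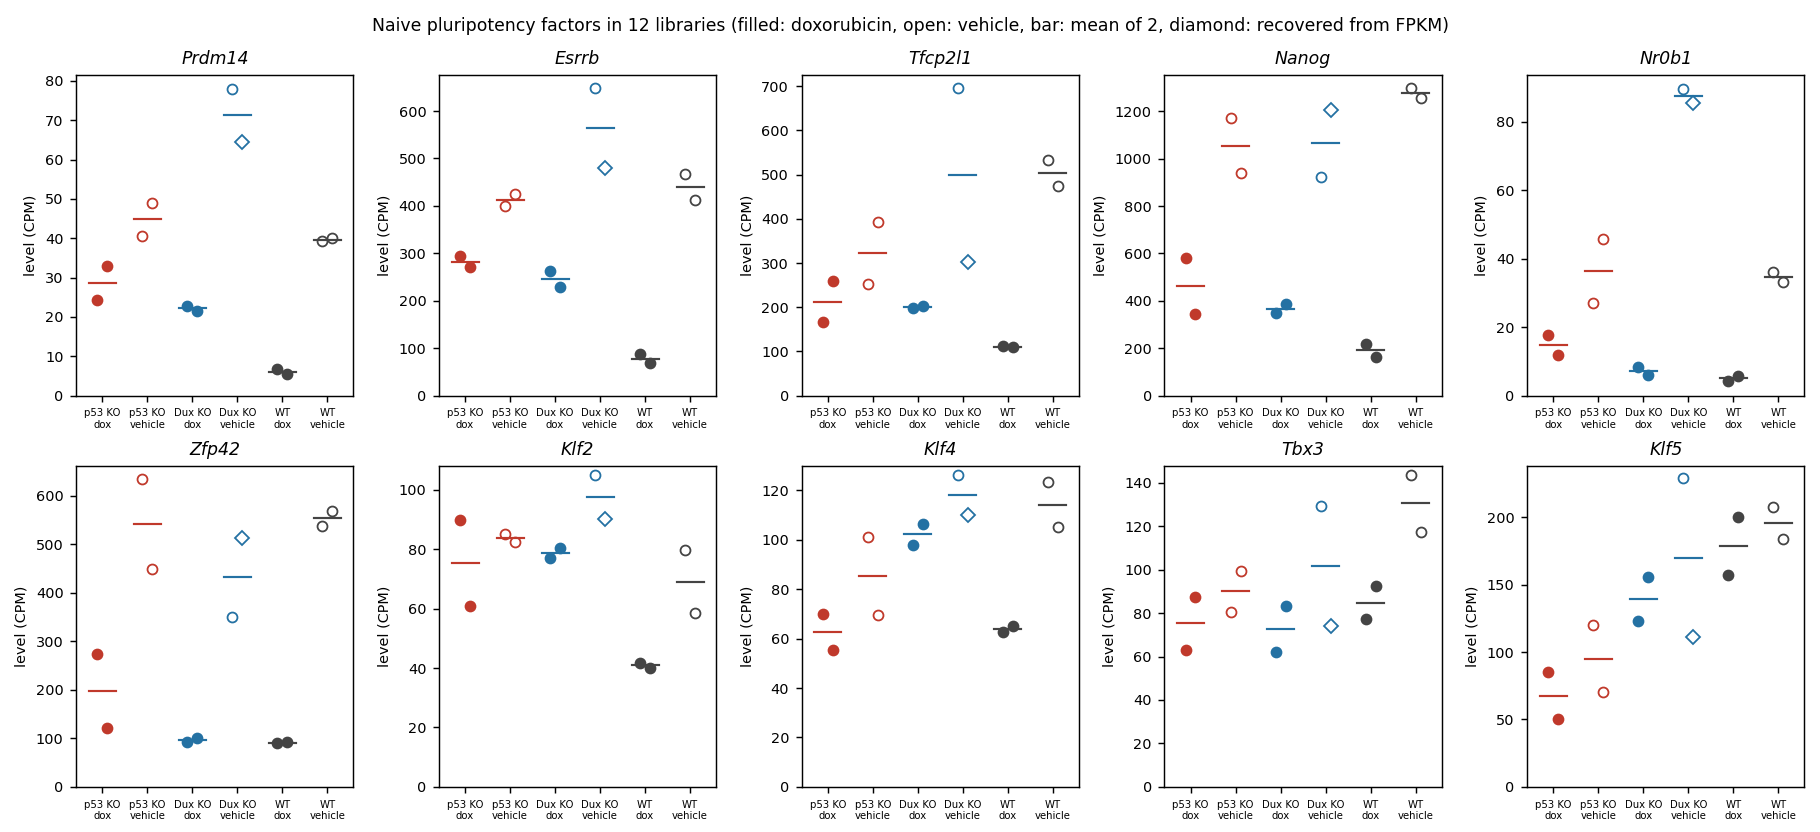
Level of each factor in CPM (linear axis from 0) in each of the 12 libraries, by genotype and treatment. Filled points are doxorubicin, open points vehicle, bars the mean of 2 libraries, and the diamond is the Dux KO vehicle library recovered from FPKM. In the top row the wild-type drug points lie below all other points of the panel, whereas Klf5 shows overlapping drug and vehicle points in every genotype.

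Nanog, on chromosome 6 at 122707489 to 122714633, had 219.7 and 162 CPM in wild-type drug libraries a and b, against 1299 and 1256 CPM in wild-type vehicle libraries. In p53 KO lines 1 and 2 it had 581 and 346 CPM under drug, against 1173 and 939 CPM under vehicle. In Dux KO lines 1 and 2 it had 350.3 and 385 CPM under drug, against 922 and 1208 CPM under vehicle. Drug libraries lay below vehicle libraries in all 3 genotypes, and the drug libraries of both knockouts lay above those of wild-type cells. The log2 change of Nanog was -2.75 ± 0.26 (SE) in wild-type cells, with an edgeR adjusted p of 4.7e-05. It was -1.19 ± 0.25 in p53 KO cells with an edgeR adjusted p of 0.013, a call lost by limma without a filter (adjusted p = 0.066). In Dux KO cells it was -1.32 ± 0.29 with an edgeR adjusted p of 0.0093, and that call was lost without Dux KO drug library 1 (adjusted p = 0.057). Of the 50-base words in Nanog transcripts, 4.61% also occur in other genes, the pseudogene Nanog-ps1 among them.

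Esrrb, an orphan nuclear receptor that can stand in for Nanog, had 87.0 and 68.0 CPM in wild-type drug libraries, against 466 and 413 CPM in wild-type vehicle libraries. In p53 KO lines it had 294 and 270.4 CPM under drug, against 399.9 and 426 CPM under vehicle. In Dux KO lines it had 262 and 229 CPM under drug, against 648 and 479 CPM under vehicle. The drug libraries of both knockouts stood well above the wild-type ones, at less than their own vehicle libraries. The fall in wild-type cells was -2.51 ± 0.16 on the log2 scale (edgeR adjusted p = 9.2e-06). In Dux KO cells it was -1.39 ± 0.17 (edgeR adjusted p = 0.00068). In p53 KO cells the log2 change was -0.55 ± 0.15, and its edgeR adjusted p was 0.033 with 11 libraries and 0.073 with the recovered counts added. It was lost in each limma setting (adjusted p = 0.44 to 0.50) and without any one of 7 libraries, the 2 wild-type vehicle libraries, the 2 p53 KO vehicle libraries, p53 KO drug library 2 and the 2 Dux KO drug libraries (adjusted p = 0.052 to 0.097).

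Prdm14, on chromosome 1 at 13113457 to 13127163, encodes a PR-domain repressor that restrains FGF signalling and DNA methylation. It had 6.75 and 5.37 CPM in wild-type drug libraries, against 39.3 and 40 CPM in wild-type vehicle libraries. Cells without p53 had 24.2 and 32.97 CPM under drug, against 40.5 and 49.0 CPM under vehicle. Cells without Dux had 22.8 and 21.5 CPM under drug, against 78.0 and 64.6 CPM under vehicle. Drug lay below vehicle in each genotype, the wild-type drug libraries were the lowest of all 12, and the Dux KO vehicle libraries were the highest. The log2 change was -2.72 ± 0.20 in wild-type cells (edgeR adjusted p = 1.7e-05) and -1.80 ± 0.22 in Dux KO cells (edgeR adjusted p = 0.00059). In p53 KO cells it was -0.65 ± 0.19 with an edgeR adjusted p of 0.043, against 0.057 with the recovered counts, 0.055 with no count filter and 0.32 to 0.40 by limma. It also missed the threshold without any one of 7 libraries (adjusted p = 0.06 to 0.15): the 2 wild-type vehicle libraries, wild-type drug library a, p53 KO vehicle library 2, p53 KO drug library 1 and the 2 Dux KO drug libraries.

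Tfcp2l1, a CP2-family factor downstream of STAT3, had 111 and 109.9 CPM in wild-type drug libraries, against 534 and 474 CPM in wild-type vehicle libraries. The p53 KO lines had 165 and 259 CPM under drug, against 254 and 393 CPM under vehicle. The Dux KO lines had 197 and 203 CPM under drug, against 697 and 303 CPM under vehicle. The 2 p53 KO lines differed in level but each was lower under drug, so drug and vehicle libraries overlapped there, and the 2 Dux KO vehicle libraries stood far apart. The log2 change was -2.20 ± 0.25 in wild-type cells (edgeR adjusted p = 0.00012) and -1.79 ± 0.28 in Dux KO cells (edgeR adjusted p = 0.002). With Dux KO vehicle library 2 in place of library 1 the Dux KO change was -0.59 and missed the threshold (adjusted p = 0.15), as it did by limma (adjusted p = 0.14 to 0.26). In p53 KO cells it was -0.61 with a 95% interval from -1.15 to -0.08 (edgeR adjusted p = 0.10), and with the knockout line as a block the adjusted p was 0.00045, or 0.066 with the block and the recovered counts. The small genes Gm22094, Gm28882 and Gm23497 overlap the span of Tfcp2l1, and their reads may have been counted with it.

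Zfp42 had 89.6 and 92.4 CPM in wild-type drug libraries, against 537 and 569 CPM in wild-type vehicle libraries. In p53 KO lines it had 274 and 122 CPM under drug, against 634 and 448 CPM under vehicle. In Dux KO lines it had 92.9 and 100.1 CPM under drug, against 350.4 and 513 CPM under vehicle. The Dux KO drug libraries sat just above the wild-type ones, and p53 KO line 1 alone kept a clearly higher level under drug. The log2 changes were -2.61 ± 0.33 in wild-type cells, -1.45 ± 0.32 in p53 KO cells and -1.85 ± 0.37 in Dux KO cells. Their edgeR adjusted p-values were 0.00025, 0.017 and 0.0064 in that order, and the p53 KO call was lost without p53 KO vehicle library 1 (adjusted p = 0.061) and by limma without a filter (adjusted p = 0.059). Of the 50-base words of Zfp42, 8.52% also occur in the pseudogene Zfp42-ps1, so a part of its reads may be shared.

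Nr0b1, the X-linked nuclear receptor gene also called Dax1, had 4.26 and 5.76 CPM in wild-type drug libraries, against 36.1 and 33.2 CPM in wild-type vehicle libraries. Without p53 it stood at 17.7 and 11.8 CPM under drug, against 27.0 and 45.6 CPM under vehicle. Without Dux it stood at 8.31 and 5.90 CPM under drug, against 89.6 and 85.6 CPM under vehicle. The Dux KO lines were thus the highest of all under vehicle and close to the wild-type level under drug. The log2 change was -2.80 ± 0.33 in wild-type cells (edgeR adjusted p = 0.00015). In Dux KO cells it was -3.64 ± 0.36 (edgeR adjusted p = 0.00027), the deepest fall of any member in any genotype. In p53 KO cells it was -1.31 ± 0.31 (edgeR adjusted p = 0.021), lost without p53 KO vehicle library 2 (adjusted p = 0.087) or p53 KO drug library 2 (adjusted p = 0.067) and in 2 of 3 limma settings (adjusted p = 0.053 and 0.08).

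The Krueppel-like factors Klf2, Klf4 and Klf5 share DNA sites in embryonic stem cells and changed less. Klf2 had 41.8 and 40.2 CPM in wild-type drug libraries, against 79.6 and 58.6 CPM in wild-type vehicle libraries. Klf4, a target of LIF signalling, had 62.5 and 65.3 CPM in wild-type drug libraries, against 123 and 105 CPM in wild-type vehicle libraries. Klf5 had 158 and 200.4 CPM in wild-type drug libraries, against 208 and 184 CPM in wild-type vehicle libraries. Drug and vehicle libraries were apart for Klf2 and Klf4 and overlapped for Klf5. The log2 change was -0.76 ± 0.20 for Klf2 (edgeR adjusted p = 0.012) and -0.85 ± 0.19 for Klf4 (edgeR adjusted p = 0.0058). The Klf2 call was lost without wild-type vehicle library a (adjusted p = 0.11) or wild-type drug library a (adjusted p = 0.053). For Klf5 it was -0.14 with a 95% interval from -0.81 to 0.54 (edgeR adjusted p = 0.72).

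The 3 genes were also followed in the knockouts. Klf2 had 90.1 and 60.9 CPM in p53 KO drug libraries against 85.2 and 82.4 CPM in p53 KO vehicle libraries, and 77.0 and 80.4 CPM in Dux KO drug libraries against 104.9 and 90.2 CPM in Dux KO vehicle libraries. Klf4 had 69.8 and 55.6 CPM in p53 KO drug libraries against 101 and 69.4 CPM in p53 KO vehicle libraries, and 97.9 and 107 CPM in Dux KO drug libraries against 126 and 109.9 CPM in Dux KO vehicle libraries. Klf5 had 85.1 and 50.1 CPM in p53 KO drug libraries against 120.2 and 70.3 CPM in p53 KO vehicle libraries, and 123 and 156 CPM in Dux KO drug libraries against 229 and 111 CPM in Dux KO vehicle libraries. None of these 6 changes was called by edgeR (adjusted p = 0.14 to 0.62), and their log2 values ran between -0.70 and -0.15. With the line as a block Klf4 and Klf5 fell in p53 KO cells (adjusted p = 0.0061 and 0.006). With the block and the recovered counts the Klf4 call held (adjusted p = 0.034) and the Klf5 call was lost (adjusted p = 0.17). In Dux KO cells Klf5 also fell under the block (adjusted p = 0.0011), but not with the recovered counts added to it (adjusted p = 0.55), and with vehicle library 2 in place of library 1 its log2 change was 0.34 (adjusted p = 0.54).

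Tbx3, a T-box factor that in mouse embryonic stem cells acts downstream of PI3K, had 77.1 and 92.4 CPM in wild-type drug libraries, against 144 and 117 CPM in wild-type vehicle libraries. The p53 KO lines had 63.0 and 87.5 CPM under drug, against 80.6 and 99.4 CPM under vehicle. The Dux KO lines had 62.2 and 83.4 CPM under drug, against 129 and 74.0 CPM under vehicle. Drug libraries lay below vehicle libraries in wild-type cells and overlapped them in both knockouts. The wild-type log2 change was -0.63 ± 0.21, with an edgeR adjusted p of 0.034. That call was lost with the recovered counts (adjusted p = 0.083), RLE scaling (adjusted p = 0.073), DESeq2 (adjusted p = 0.066) and each limma setting (adjusted p = 0.16 to 0.24). It was also lost without any one of the 4 wild-type libraries (adjusted p = 0.053 to 0.19). In Dux KO cells it was -0.82 ± 0.25 with an edgeR adjusted p of 0.041. With the recovered counts it was -0.48 and not called (adjusted p = 0.20, or 0.16 with the block), and the call was also lost with RLE scaling (adjusted p = 0.058) and by limma (adjusted p = 0.78 to 0.95). With Dux KO vehicle library 2 in place of library 1 it was -0.02 (adjusted p = 0.99), and the call was lost without any one of the 4 wild-type libraries (adjusted p = 0.061 to 0.07) or either Dux KO drug library (adjusted p = 0.18 and 0.051). In p53 KO cells it was -0.27, with a 95% interval from -0.75 to 0.22 (edgeR adjusted p = 0.41). The antisense gene Tbx3os1 overlaps Tbx3, and reads of the pair could not be told apart.

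**Figure D2:**
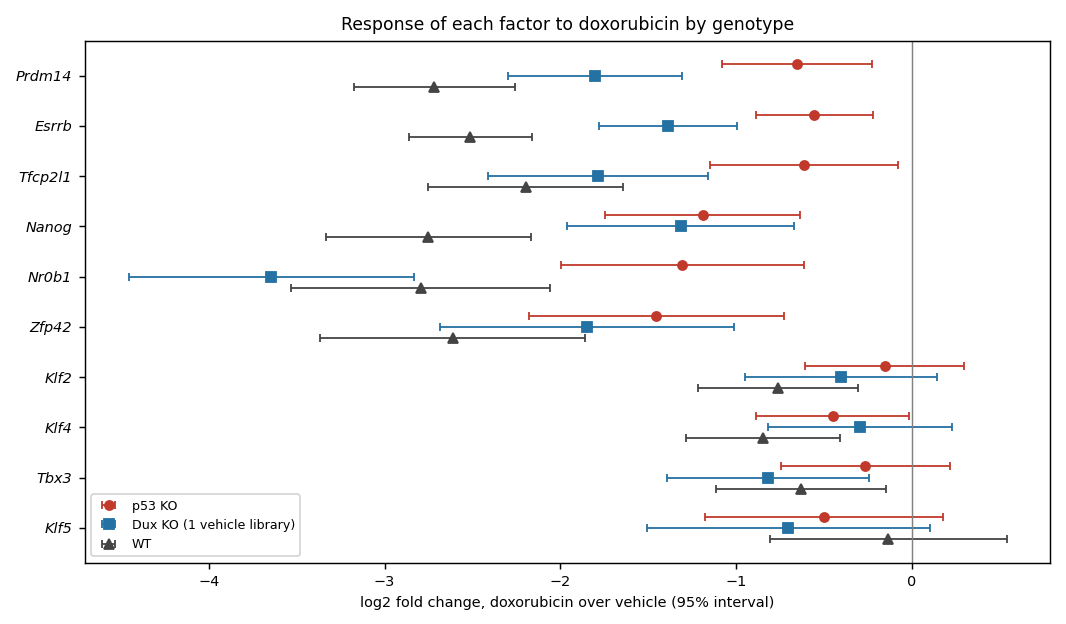
Log2 fold change of each factor under doxorubicin over vehicle (x axis) in p53 KO cells (circles), Dux KO cells (squares) and wild-type cells (triangles), with 95% intervals from edgeR. Wild-type changes of the upper 6 genes lie between -2.80 and -2.20, and the p53 KO points lie nearer 0 than the wild-type points for all but Klf5.

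Counted over the members, 5 fell in p53 KO cells (Nanog, Esrrb, Prdm14, Zfp42 and Nr0b1), where 8.09% of all genes fell. With the recovered counts 3 fell, Nanog, Zfp42 and Nr0b1, against 5.53% of all genes. With the line as a block 8 fell, which adds Klf4, Klf5 and Tfcp2l1, against 16.4% of all genes, and of those 3 Klf4 alone was called with the block and the recovered counts, where 6 members fell against 12.6% of all genes. In Dux KO cells 7 fell (Nanog, Esrrb, Tfcp2l1, Tbx3, Prdm14, Zfp42 and Nr0b1), where 11.9% of all genes fell, and 6 fell with the recovered counts, against 16.8% of all genes. The median log2 change over the members was -0.58 in p53 KO cells and -1.35 in Dux KO cells, against medians over all genes of 0.18 and 0.00. By edgeR 0 members rose in any genotype, and 0 did at an unadjusted p under 0.05 or by DESeq2. Over all genes 8297 of 28643 rose in wild-type cells and 2668 in p53 KO cells by edgeR. With the recovered counts 4987 of 26975 rose in Dux KO cells.

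How much of the fall depended on p53 was measured as the response in p53 KO cells minus that in wild-type cells, where a positive value is a smaller fall without p53. The ranking by this difference was Prdm14, Esrrb, Tfcp2l1, Nanog, Nr0b1, Zfp42, Klf2, Klf4, Tbx3 and Klf5. Of the 10, the leading 5 passed edgeR's test, against 9.90% of all genes called in that direction. None was called in the other direction, where 10.3% of all genes were. The number was 4 with the recovered counts, against 8.65% of all genes. It was 8 with the line as a block, which adds Klf2, Klf4 and Zfp42, against 19.8% of all genes. With the block and the recovered counts it was 6, the leading 5 and Zfp42, against 16.7% of all genes. The median difference was 1.32 over the members and 0.05 over all genes.

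Prdm14 led with a difference of 2.06 ± 0.27 log2 units (edgeR adjusted p = 0.0013), as p53 KO cells kept 24.1% of its wild-type log2 change. Esrrb differed by 1.96 ± 0.21 (edgeR adjusted p = 0.00059) and kept 22.1%. These 2 calls held in all alternatives and without any single library. Tfcp2l1 differed by 1.58 ± 0.34 (edgeR adjusted p = 0.011) and kept 27.9%, and its call was lost with the recovered counts (adjusted p = 0.052), in 2 of 3 limma settings (adjusted p = 0.056 and 0.11) and without wild-type drug library b (adjusted p = 0.058). Nanog differed by 1.56 ± 0.34 (edgeR adjusted p = 0.013) and kept 43.3%. Its call was lost without wild-type vehicle library a (adjusted p = 0.052) or wild-type drug library b (adjusted p = 0.05). Nr0b1 differed by 1.49 ± 0.43 (edgeR adjusted p = 0.041) and kept 46.7%, a call lost without any one of 8 of the 11 libraries (adjusted p = 0.055 to 0.14), with p53 KO vehicle library 2, p53 KO drug library 2 and the Dux KO vehicle library the exceptions, and with RLE scaling (adjusted p = 0.051).

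Zfp42 and the smaller responders did not pass. Zfp42 differed by 1.16 with a 95% interval from 0.15 to 2.17 (edgeR adjusted p = 0.10), and with the line as a block its adjusted p was 0.00084. Klf2 differed by 0.61 with an interval from -0.03 to 1.25, Klf4 by 0.40 with an interval from -0.22 to 1.01 and Tbx3 by 0.37 with an interval from -0.32 to 1.05. Klf5, which did not pass in wild-type cells, differed by -0.36 with an interval from -1.32 to 0.59. A p above the threshold does not show that these responses were alike. Neighbours in the ranking mostly had overlapping 95% intervals: that of Prdm14 ran from 1.45 to 2.67 and that of Nr0b1, 4 places lower, from 0.51 to 2.47. A member that fell little in wild-type cells has little fall to lose, so the difference ranks it low. As a share of the wild-type log2 change the order was another one. Of the 9 members that fell in wild-type cells, Klf2 kept the least in p53 KO cells, at 20.3%. Tbx3 kept 42.0%, Klf4 53.1% and Zfp42 55.7%. These shares carry no test.

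**Figure D3:**
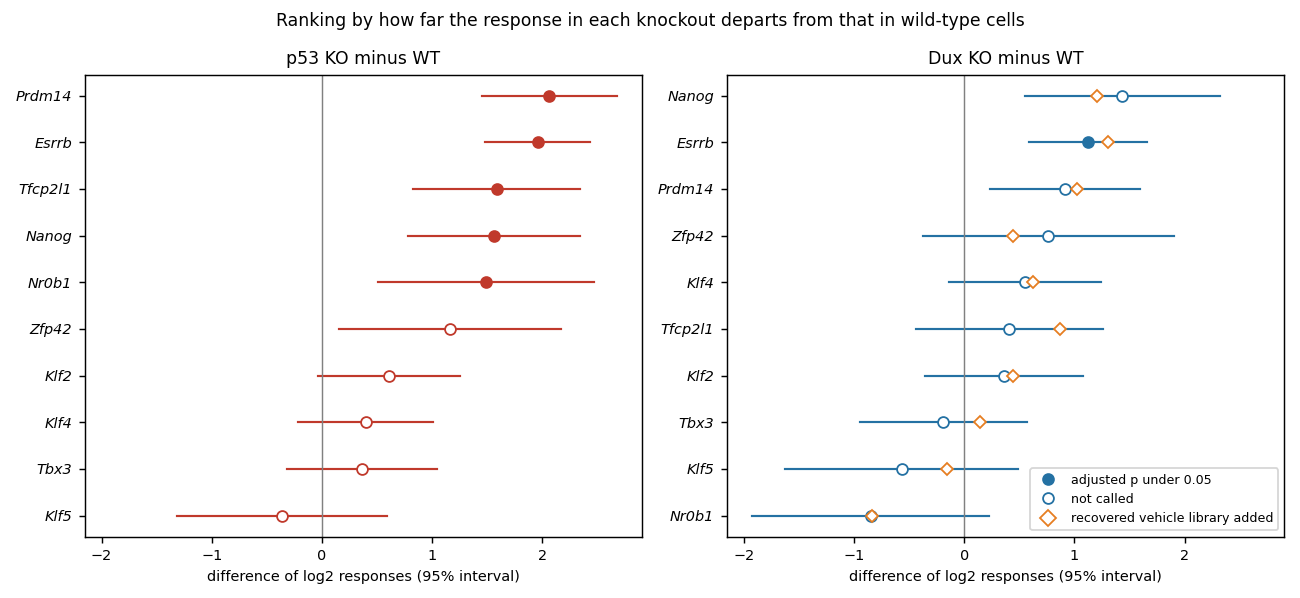
Difference between the log2 response in each knockout and that in wild-type cells, ranked within each panel, with p53 KO on the left, Dux KO on the right and 95% intervals. Filled circles passed edgeR's test, and orange diamonds are Dux KO values with the recovered vehicle library. Prdm14 and Esrrb lead on the left at 2.06 and 1.96, and Nr0b1 is lowest on the right at -0.85.

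The same difference for Dux gave another order, with 1 Dux KO vehicle library led by Nanog and Esrrb and ending with Nr0b1. With the recovered counts Esrrb came before Nanog, and Nr0b1 was still last. Tfcp2l1 then moved from place 6 to 4 and Zfp42 from place 4 to 7. With 1 Dux KO vehicle library Esrrb alone passed, with a difference of 1.12 ± 0.24 (edgeR adjusted p = 0.031), against 2.10% of all genes called in that direction. With the recovered counts it was 1.30 (adjusted p = 0.019). The call was lost without wild-type vehicle library a or b (adjusted p = 0.11 and 0.087), wild-type drug library b (adjusted p = 0.073) or Dux KO drug library 1 or 2 (adjusted p = 0.11 and 0.072), and by limma on log2(FPKM + 1) (adjusted p = 0.057 and 0.074 with and without the filter). Nanog differed by 1.43 with a 95% interval from 0.55 to 2.32 (edgeR adjusted p = 0.07), and by 1.21 with the recovered counts (adjusted p = 0.096). Prdm14 differed by 0.91 with an interval from 0.23 to 1.60 (edgeR adjusted p = 0.12). With the line as a block 4 members passed in that direction, Nanog, Esrrb, Prdm14 and Zfp42, against 12.1% of all genes, and Klf5 passed in the other (adjusted p = 0.021), against 8.44%. With the block and the recovered counts Nanog, Esrrb, Prdm14 and Klf4 passed, against 7.17% of all genes, and none in the other direction, against 6.89%. The Klf5 value was then -0.08 (adjusted p = 0.94), and 0.47 with vehicle library 2 in place of library 1.

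For the other members the Dux difference was smaller or uncertain in sign. Zfp42 differed by 0.76 with a 95% interval from -0.37 to 1.90, Klf4 by 0.55 with an interval from -0.14 to 1.24 and Klf2 by 0.36 with an interval from -0.36 to 1.08. With the recovered counts Zfp42 differed by 0.44 and Klf2 by 0.44. Klf4 then differed by 0.63 with an interval from 0.007 to 1.25 (edgeR adjusted p = 0.27). Tfcp2l1 differed by 0.41 with 1 Dux KO vehicle library and by 0.87 with the recovered one added, with an interval from -0.44 to 1.25 for the smaller value. Tbx3 stood at -0.19 and 0.14 and Klf5 at -0.57 and -0.16 under those 2 settings. Nr0b1 differed by -0.85 with an interval from -1.92 to 0.22 (edgeR adjusted p = 0.34), as Dux KO cells showed 130.4% of its wild-type log2 change. The median difference was 0.48 over the members and 0.06 over all genes. As a share of the wild-type log2 change the order again differed. Of the 9 members that fell in wild-type cells, Klf4 kept the least in Dux KO cells, at 35.0%, or 25.0% with the recovered counts. For Nanog these shares were 48% and 56%. They carry no test.

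The p53 and the Dux differences share the 4 wild-type libraries, so the 2 rankings are not independent. Set side by side, Esrrb had 1.96 without p53 and 1.12 without Dux, Prdm14 had 2.06 and 0.91, Nanog 1.56 and 1.43, and Nr0b1 1.49 and -0.85. The responses of the 2 knockouts were also compared directly, a contrast whose value takes no wild-type mean, although its test shares the spread estimated over all libraries. Nr0b1 fell less in p53 KO than in Dux KO cells by 2.34 ± 0.47 log2 units (edgeR adjusted p = 0.02), lost without Dux KO drug library 2 (adjusted p = 0.087). Prdm14 fell less in p53 KO cells by 1.15 ± 0.29 (edgeR adjusted p = 0.046), and that call was lost without any one of 8 libraries, all but p53 KO vehicle library 2 and p53 KO drug library 1 among the 10 that could be left out (adjusted p = 0.06 to 0.15). The Prdm14 call was also lost with RLE scaling (adjusted p = 0.058), no count filter (adjusted p = 0.053), ribosomal loci left out (adjusted p = 0.065), limma (adjusted p = 0.058 to 0.096) and the vehicle library exchanged (adjusted p = 0.096). These 2 members were called against 2.89% of all genes in that direction, and 5 were with the line as a block, which adds Esrrb, Tfcp2l1 and Tbx3, against 9.83% of all genes. Those 3 calls were lost with the block and the recovered counts, which left 2, against 11.3% of all genes, and with the vehicle library exchanged Tfcp2l1 stood at -0.02 and Tbx3 at -0.25. For Nanog the knockouts differed by 0.13, with a 95% interval from -0.74 to 0.99, and for Esrrb by 0.84, with an interval from 0.32 to 1.35 (edgeR adjusted p = 0.061). Tfcp2l1 differed by 1.17, Tbx3 by 0.55, Zfp42 by 0.40, Klf2 by 0.25, Klf5 by 0.21 and Klf4 by -0.15, none of them called (edgeR adjusted p = 0.088 to 0.86).

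Each knockout line could also be read on its own, which shows how far the lines of a genotype agreed. For Prdm14 the log2 ratio of drug to vehicle was -0.74 and -0.57 in p53 KO lines 1 and 2, -1.77 and -1.59 in Dux KO lines 1 and 2, and -2.90 to -2.54 over the 4 pairs of wild-type libraries. For Esrrb it was -0.45 and -0.65 in p53 KO lines, -1.31 and -1.06 in Dux KO lines and -2.78 to -2.25 over the wild-type pairs. Both genes kept the 3 genotypes apart in every line. For Nr0b1 the p53 KO lines gave -0.61 and -1.95, while the Dux KO lines gave -3.43 and -3.86. The Dux KO lines disagreed for Tfcp2l1, at -1.82 and -0.58, for Tbx3, at -1.06 and 0.17, and for Klf5, at -0.90 and 0.49. In these 3 genes the spread came with the vehicle libraries, where line 2 over line 1 stood at 0.434, 0.572 and 0.484 times, more than with the drug libraries, where it stood at 1.03, 1.34 and 1.27 times.

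**Figure D4:**
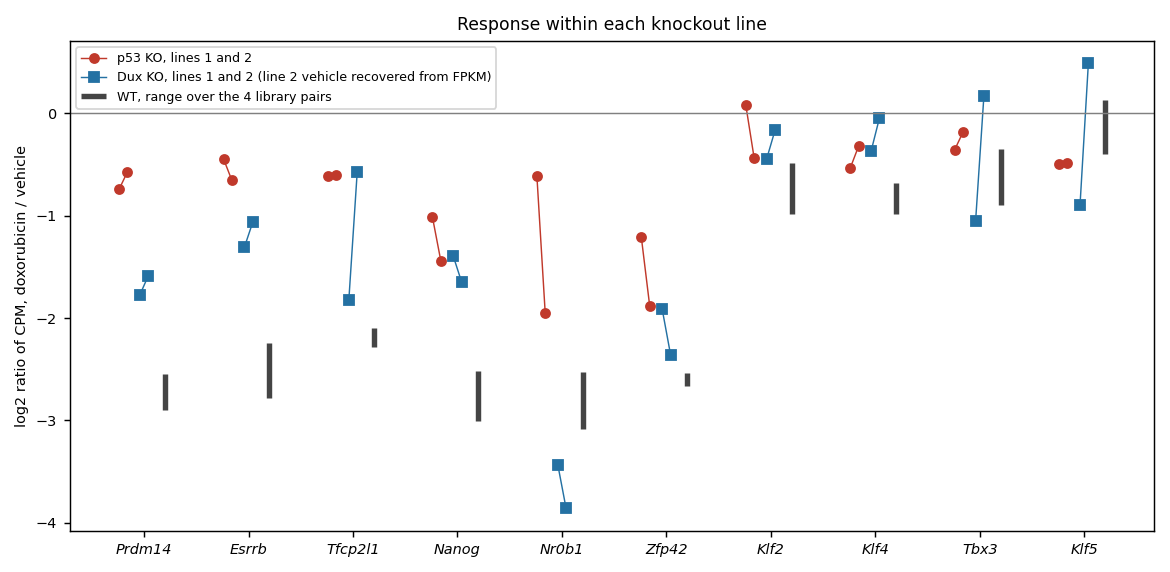
Log2 ratio of CPM under doxorubicin to CPM under vehicle in each p53 KO line (red circles), each Dux KO line (blue squares, with the line 2 vehicle library recovered from FPKM) and over the 4 wild-type library pairs (dark bars). Joined symbols are lines 1 and 2 of a genotype. The Dux KO lines are far apart for Tfcp2l1, Tbx3 and Klf5.

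Under vehicle 0 members were called between either knockout and wild-type cells by edgeR, where 0.887% of all genes were called in p53 KO cells and 1.00% in Dux KO cells. At an unadjusted p under 0.05, Klf5, Tfcp2l1 and Tbx3 were lower in p53 KO cells and Esrrb, Klf2, Prdm14 and Nr0b1 higher in Dux KO cells. With the line as a block, Klf4, Klf5, Tfcp2l1 and Tbx3 were lower in p53 KO cells under vehicle, against 6.44% of all genes, and Tfcp2l1, Prdm14 and Nr0b1 higher in Dux KO cells, against 5.31%. With the block and the recovered counts Klf5 alone was lower in p53 KO cells, against 4.29% of all genes, and Prdm14 and Nr0b1 were higher in Dux KO cells, against 6.66%. Tfcp2l1 in Dux KO cells was then at -0.10 (adjusted p = 0.83). Its level was 697 CPM in Dux KO vehicle library 1, above both wild-type vehicle libraries, and 303 CPM in library 2, below both. By DESeq2 Klf5 was lower in p53 KO cells, and Prdm14 and Nr0b1 higher in Dux KO cells. Klf5 showed the largest gap in p53 KO cells, with 120.2 and 70.3 CPM in p53 KO vehicle libraries against 208 and 184 CPM in wild-type vehicle libraries. Its log2 difference was -1.03 with a 95% interval from -1.72 to -0.35 (edgeR adjusted p = 0.17). Nr0b1 showed the largest in Dux KO cells, with 89.6 and 85.6 CPM in Dux KO vehicle libraries against 36.1 and 33.2 CPM in wild-type vehicle libraries, a log2 difference of 1.37 with an interval from 0.58 to 2.17 (edgeR adjusted p = 0.098). Prdm14 stood at 78.0 and 64.6 CPM in Dux KO vehicle libraries against 39.3 and 40 CPM in wild-type vehicle libraries, a log2 difference of 0.98 with an interval from 0.48 to 1.48 (edgeR adjusted p = 0.076). The log2 difference from wild-type cells under vehicle was -0.27 in p53 KO and -0.47 in Dux KO cells for Nanog, -0.09 and 0.56 for Esrrb, and -0.03 and -0.66 for Zfp42. It was -0.64 in p53 KO and 0.47 in Dux KO cells for Tfcp2l1, -0.53 and -0.01 for Tbx3, 0.28 and 0.61 for Klf2, and -0.42 and 0.15 for Klf4. For the 3 genes described before, it was 0.23 in Dux KO cells for Klf5, and 0.07 for Nr0b1 and 0.18 for Prdm14 in p53 KO cells.

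Other genes of the network were read from lists that leave out the members. Of 12 core pluripotency regulators 9 fell in wild-type cells, with a median log2 change of -1.48 over the list, and 6 were called up in the p53 difference. Over all genes 23.4% fell in wild-type cells and 9.90% were called up in the p53 difference. In the Dux difference 2 of the 12 were called up, Pou5f1 and Sox2, against 2.10% of all genes, and 2 down, Sall4 at -1.77 and Lin28a at -1.80 (edgeR adjusted p = 0.033 and 0.018), against 3.15%, with 1 in each direction when the recovered counts were added. Sall4 and Lin28a were named after their values were seen. Pou5f1, which encodes OCT4, had 154 and 144 CPM in wild-type drug libraries against 884 and 915 CPM in wild-type vehicle libraries, and 684 and 593 CPM in p53 KO drug libraries against 984 and 976 CPM in p53 KO vehicle libraries. Its p53 difference was 1.98 (edgeR adjusted p = 0.0004), and its Dux difference was 1.28 (edgeR adjusted p = 0.012), or 1.00 with the recovered counts (adjusted p = 0.056). Sox2, the partner of OCT4, had 125 and 157 CPM in p53 KO drug libraries, 277 and 248.9 CPM in Dux KO drug libraries and 78.7 and 71.3 CPM in wild-type drug libraries. Its p53 difference was 1.41 (edgeR adjusted p = 0.0097) and its Dux difference 1.81 (edgeR adjusted p = 0.018). Utf1, a chromatin factor of pluripotent cells, fell by 2.43 log2 units in wild-type cells (edgeR adjusted p = 9.7e-06) and had a p53 difference of 1.67 (edgeR adjusted p = 0.0011).

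Of 23 other naive pluripotency genes 15 fell and 3 rose in wild-type cells, with a median log2 change of -1.31, where 23.4% of all genes fell and 29.0% rose. In the p53 difference 11 were called up and 3 down, against 9.90% and 10.3% of all genes, and in the Dux difference 5 up and 2 down, against 2.10% and 3.15%. Tdgf1, the co-receptor also called Cripto, had 15.5 and 12.1 CPM in wild-type drug libraries against 356 and 440 CPM in wild-type vehicle libraries. It had 224 and 183 CPM in p53 KO drug libraries and 233 and 146 CPM in Dux KO drug libraries, all far above the wild-type drug level. Its p53 difference was 3.92 (edgeR adjusted p = 0.00034) and its Dux difference 3.31 (edgeR adjusted p = 0.0024). Tcl1, a cofactor of AKT, and Ooep, a maternal-effect gene, changed by -4.65 and -3.32 log2 units in wild-type cells, with p53 differences of 4.21 and 2.71 (edgeR adjusted p = 0.0005 and 0.00053). Their Dux differences were 1.79 and 2.00 (edgeR adjusted p = 0.066 and 0.011). The 3 genes that rose in wild-type cells were Dppa2, Tex19.1 and Sox15, at log2 changes of 1.49, 1.83 and 0.66, and they were named after their values were seen.

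Of 15 genes of the LIF and STAT3 pathway 6 fell and 3 rose in wild-type cells, with a median log2 change of -0.02, where 23.4% of all genes fell and 29.0% rose. The receptor genes Lifr and Il6st were among those that fell. Il6st, which encodes gp130, had 19.6 and 19 CPM in wild-type drug libraries against 66.1 and 62.3 CPM in wild-type vehicle libraries, and 86.3 and 135 CPM in p53 KO drug libraries against 68.6 and 106 CPM in p53 KO vehicle libraries. The p53 difference of Il6st was 2.08 (edgeR adjusted p = 0.005). Lifr, the LIF receptor, fell by 1.41 log2 units (edgeR adjusted p = 0.00043) with a p53 difference of 1.18 (edgeR adjusted p = 0.018) that missed the threshold with the recovered counts (adjusted p = 0.085). Bcl3, a STAT3 target, had 6.75 and 6.92 CPM in wild-type drug libraries against 42.3 and 44.0 CPM in wild-type vehicle libraries, and 38.4 and 39.2 CPM in p53 KO drug libraries against 43.5 and 42.6 CPM in p53 KO vehicle libraries. For Bcl3 the p53 difference was 2.51 (edgeR adjusted p = 0.0002). On this list 5 genes were called up and 1 down in the p53 difference, against 9.90% and 10.3% of all genes. None was called in the Dux difference, where 2.10% of all genes were called up and 3.15% down.

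Over the 11 libraries with counts of their own, the members shared a common profile to different degrees. Pearson's r with the mean standardised profile of the 10, which includes each gene itself, was 0.95 for Tfcp2l1, 0.93 for Nanog, 0.92 for Nr0b1, 0.92 for Esrrb, 0.89 for Prdm14, 0.84 for Zfp42, 0.78 for Klf4, 0.73 for Klf2, 0.69 for Tbx3 and 0.27 for Klf5. These values mainly restate the drug contrast and carry no test. Among 10342 other protein-coding genes the closest profiles were those of Smarcb1, Eif4b, Mrfap1, Wdr5 and Eno1, with r between 0.97 and 0.98. Their own changes were of different sizes: Eno1 fell by 2.09 and Smarcb1 by 0.67 log2 units in wild-type cells (edgeR adjusted p = 1.1e-05 and 0.0012).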

How the data were processed

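Whole-number counts per Ensembl gene were used as the authors deposited them. The deposited FPKM table also holds the authors' log2 fold changes with adjusted p-values for their own comparisons, of which the wild-type columns were used for the members, and 6 columns of group averages there were not used. Per the submitters' processing notes the tools were TopHat2, DESeq and DESeq2 and the build was mm10. Tool versions, how reads were counted, with which gene models and with which strandedness are not given in the sources used here. The ratio of counts to FPKM scaled with the whole gene span (within 1%) in 98.2% to 98.3% of genes compared. It scaled with the exonic length in 0.701% to 0.938%. FPKM values were thus divided by the gene span, which cannot show whether intronic reads were counted.

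The deposited count column of Dux KO vehicle library 2 repeats another library and was left out. Its counts were recovered from its FPKM values, with the library total chosen so that low values became whole reads. Of 1651 low values 100% then lay within 0.15 of a whole read, which follows largely from that choice and is no separate check. Applied to the 11 libraries with known counts, these steps came within 1 read or 1% of the deposited value for at least 96.3% of genes.

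Tests used edgeR 4.0.16 under R 4.3.3, with filterByExpr (minimum count 10), TMM scaling, 1 mean per group over 11 libraries, quasi-likelihood F-tests with 5 residual degrees of freedom, and Benjamini-Hochberg adjustment over 28643 genes. All groups share 1 estimate of the spread, and the lone Dux KO vehicle library is assumed to vary like the others. The threshold was an adjusted p under 0.05, and intervals are 95% intervals. With 2 libraries per group, called biological duplicates in the series' design text, p-values measure the spread between these libraries, and the knockout spread includes the difference between lines. Knockout libraries with the same line number come from the same line by their labels, and their deviations from group means correlated at 0.67 in p53 KO and 0.21 in Dux KO cells over 26975 genes, so a fit with the line as a block was run and is given where it changes a call. Wild-type columns carry no number and are called a and b.

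The alternatives were DESeq2 1.42.0, median-ratio (RLE) scaling, no count filter, ribosomal RNA loci left out, limma 3.58.1 on log2(FPKM + 1) or log2(FPKM + 0.1) for genes of at least 1 FPKM in 2 libraries or without that filter, the recovered library added, and each library left out in turn. The limma fits took the FPKM columns of all 12 libraries, both Dux KO vehicle libraries among them, without TMM scaling. Using the recovered library in place of library 1 was added after seeing the data. The members and gene lists were chosen with earlier results of these data known. All 10 members are named in every comparison, with Trp53, the Dux gene and Mdm2 as checks. From each other list the 3 genes with the largest called wild-type change at a mean of at least 1 CPM are named, and the 5 genes of at least 10 CPM with the profile most like the members' mean. Scripts were tested on simulated counts. Positions come from GENCODE M21 (GRCm38), and start windows and motifs from RefSeq (GRCm38.p6).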

Additional observations from a re-analysis of the deposited data

Results flagged for a closer look

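The differences below passed edgeR's test of the difference between 2 genotypes' responses to doxorubicin (adjusted p under 0.05). Between p53 KO and wild-type cells these were Prdm14 (2.06 log2 units), Esrrb (1.96), Tfcp2l1 (1.58), Nanog (1.56) and Nr0b1 (1.49), each a smaller fall without p53. Between Dux KO and wild-type cells it was Esrrb (1.12), a smaller fall without Dux. Between p53 KO and Dux KO cells these were Nr0b1 (2.34) and Prdm14 (1.15), a smaller fall without p53 than without Dux. Both genes started higher in Dux KO cells. Under vehicle Nr0b1 had 89.6 and 85.6 CPM there against 27.0 and 45.6 CPM in p53 KO cells. Prdm14 had 78.0 and 64.6 against 40.5 and 49.0 CPM. The p53 KO and Dux KO comparisons with wild-type cells share the 4 wild-type libraries.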

How the results depend on the processing

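The number of members that fell in wild-type cells stayed between 7 and 9 under every alternative run, and that in Dux KO cells between 5 and 7 when 1 library was left out. With the line as a replicate block, 8 members fell in p53 KO cells, 8 were called up in the p53 difference, 4 up and 1 down in the Dux difference, 5 up between the knockouts, 4 lower in p53 KO and 3 higher in Dux KO cells under vehicle. The block changed no other member count by over 1.5 times, and the fit leaves 3 degrees of freedom. With the recovered library 3 members fell in p53 KO cells, and with it and the block 4 passed in the Dux difference, 1 was lower in p53 KO and 2 were higher in Dux KO cells under vehicle. limma on log2(FPKM + 1) gave 3 falls in p53 KO cells, 2 on log2(FPKM + 0.1) and 0 without a filter. Over all genes 449 and 467 of 14614 fell in the 2 filtered settings and 419 of 42116 without a filter, against 2318 of 28643 by edgeR. The number of genes called also changed with the setting in the other comparisons. In the Dux difference 2 members passed with no count filter, DESeq2, log2(FPKM + 0.1) or ribosomal loci left out. Between the knockouts 4 passed by DESeq2 and 1 with RLE scaling, no count filter, each limma setting, ribosomal loci left out or the vehicle library exchanged. Under vehicle DESeq2 called 1 member lower in p53 KO and 2 higher in Dux KO cells, and log2(FPKM + 1) called 1 higher in Dux KO cells. Leaving out 1 library at a time gave 3 to 5 falls in p53 KO cells, 2 to 7 members in the p53 difference, 0 to 2 in the Dux difference, 0 to 3 between the knockouts and 0 to 2 higher in Dux KO cells under vehicle.

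None of the turned signs belonged to a change called by edgeR over all 11 libraries without the block. Of the calls gained under the block, 5 turned in another setting: Klf5 in the Dux KO response and in the Dux difference, Tfcp2l1 in Dux KO cells under vehicle, and Tfcp2l1 (also called by DESeq2) and Tbx3 between the knockouts. On log2(FPKM + 1), with and without the filter, and on log2(FPKM + 0.1), the p53 KO change was 0.12 and 0.13 for Klf2 and 0.032 and 0.034 for Tbx3. In the same settings the Dux KO change was 0.081 and 0.084 for Klf4 and 0.072 and 0.087 for Klf5, and the Dux difference was 0.17 and 0.19 for Klf5 and 0.39 and 0.43 for Tbx3. The difference between the knockouts was -0.23 and -0.27 for Klf5. Under vehicle the p53 KO difference of Nr0b1 was -0.017 and -0.024, and the Dux KO difference was -0.066 and -0.068 for Klf4, -0.36 and -0.40 for Klf5 and -0.21 and -0.24 for Tfcp2l1, with -0.14 and -0.16 for the median member. With vehicle library 2 in place of library 1, Klf5 changed by 0.34 in Dux KO cells, with a Dux difference of 0.47, and Tbx3 had a Dux difference of 0.62. Between the knockouts that exchange gave -0.84 for Klf5, -0.025 for Tfcp2l1 and -0.25 for Tbx3. Under vehicle it gave Dux KO differences of -0.049 for Klf4, -0.81 for Klf5, -0.73 for Tfcp2l1 and -0.062 for the median member. With the recovered library added, without and with the block, the Dux difference of Tbx3 was 0.14 and 0.18, and the difference between the knockouts was -0.21 and -0.29 for Klf5. Under vehicle the Dux KO difference was then -0.20 and -0.25 for Klf5 and -0.011 and -0.10 for Tfcp2l1, with -0.026 for the median member under the block. For Tbx3 under vehicle it was 0.0062 with no filter and 0.20 with the block alone. Leaving out 1 library at a time, the wild-type change ran between -0.41 and 0.028 for Klf5, the p53 KO change between -0.47 and 0.10 for Klf2, the p53 difference between -0.80 and 0.071 for Klf5 and the Dux difference between -0.42 and 0.026 for Tbx3, with turned values of 0.0025 and 0.026. Between the knockouts it ran between -0.30 and 0.46 for Nanog, -0.062 and 0.51 for Klf2, -0.40 and 0.14 for Klf4 (turned at 0.013 and 0.14), -0.23 and 0.64 for Klf5 (turned at -0.13 and -0.23) and -0.31 and 0.88 for Zfp42. Under vehicle it ran between -0.17 and 0.0038 for Esrrb, -0.30 and 0.20 for Zfp42 (turned at 0.011 and 0.20) and -0.36 and 0.40 for Nr0b1 in p53 KO cells, and between -0.15 and 0.15 for Tbx3 in Dux KO cells. The limma fits did not use the TMM factors. These were 0.8886 and 0.9158 in p53 KO vehicle libraries, and 1.0748 and 1.2049 in p53 KO drug libraries. A larger factor gives a lower CPM, so log2 changes in p53 KO cells lie lower with these factors than without them. The cause of the turned signs, and of the calls lost by limma, was not tested.

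RLE scaling moved the median p53 difference over all genes to -0.07, against 0.05 with TMM. Leaving out ribosomal RNA loci moved the median wild-type change to 0.03, against 0.13, and the calls over all genes to 2349 up and 3055 down in p53 KO cells, against 2668 and 2318, and to 972 up and 888 down in the Dux difference, against 601 and 903. With 2 libraries per group and 1 Dux KO vehicle library, small Dux-dependent changes could not be resolved.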

Other observations

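Of 26 relatives of the members from the same gene families, 8 rose and 6 fell in wild-type cells, with a median log2 change of 0.20, against 0.13 over all genes. These counts lie near the background, as 29.0% of all genes rose and 23.4% fell. Klf6, a stress-responsive Krueppel-like factor, had 38.8 and 30.7 CPM in p53 KO drug libraries, 50.9 and 53.4 CPM in Dux KO drug libraries and 141 and 164 CPM in wild-type drug libraries, against 23.9 and 21.01 CPM in wild-type vehicle libraries. Its rise was 2.76 log2 units in wild-type cells (edgeR adjusted p = 1.6e-05), with a p53 difference of -2.88 and a Dux difference of -1.87 (edgeR adjusted p = 0.0004 and 0.01). Tbx2, the closest relative of Tbx3, had 3.14 and 2.47 CPM in p53 KO drug libraries, 13.5 and 16.9 CPM in Dux KO drug libraries and 15.0 and 20.6 CPM in wild-type drug libraries, against 0.917 and 0.442 CPM in wild-type vehicle libraries. It rose in all 3 genotypes (edgeR adjusted p = 0.0093 in p53 KO, 0.0018 in Dux KO and 0.00014 in wild-type cells). Klf15 had 2.48 and 1.25 CPM in wild-type drug libraries against 32.7 and 33.03 CPM in wild-type vehicle libraries, a log2 change of -4.14 (edgeR adjusted p = 1.3e-05). The p53 difference of Klf15 was 2.62 and its Dux difference 2.24 (edgeR adjusted p = 0.0019 and 0.019).

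Of 12 genes around GSK3, beta-catenin and TCF, 4 rose and 4 fell in wild-type cells, where 29.0% of all genes rose and 23.4% fell. Axin2, a feedback inhibitor and standard target of beta-catenin, had 12 and 15.3 CPM in p53 KO drug libraries, 10.1 and 9.10 CPM in Dux KO drug libraries and 47.0 and 60.4 CPM in wild-type drug libraries, against 7.26 and 5.68 CPM in wild-type vehicle libraries. Its p53 difference was -2.54 and its Dux difference -3.89 (edgeR adjusted p = 0.0011 and 0.00075). Sp5, another beta-catenin target, rose by 2.42 log2 units in wild-type cells (edgeR adjusted p = 0.001), and Btrc, a subunit of the ligase that degrades beta-catenin, fell by 1.30 (edgeR adjusted p = 4.1e-05). The p53 differences of Sp5 and Btrc were -1.13 and 0.59 (edgeR adjusted p = 0.19 and 0.035). Their Dux differences were -3.51 and 0.72 (edgeR adjusted p = 0.013 and 0.06). With the recovered counts the p53 difference of Btrc was not called (edgeR adjusted p = 0.19). Of 16 formative and primed genes tested, 2 rose and 8 fell, against the same background. Otx2, a factor of the formative state, had 1.27 and 0.725 CPM in wild-type drug libraries against 10.97 and 15.2 CPM in wild-type vehicle libraries, and 11.6 and 34.0 CPM in p53 KO drug libraries against 6.18 and 16.4 CPM in p53 KO vehicle libraries. Its p53 difference was 4.71 (edgeR adjusted p = 0.0054). Etv4, an ETS factor downstream of FGF, fell by 2.66 log2 units and Sox3 rose by 2.61 in wild-type cells (edgeR adjusted p = 0.01 and 0.00039).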
